A study of Homo sapiens with 6 samples.

Results

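Numbered LINC genes are long intergenic noncoding RNA genes that carry a placeholder symbol, LINC followed by digits, because no function had been named when the annotation was made. Members were the genes whose symbol in the authors' table has that form, that lie on chromosomes 1 to 22 or X, and whose raw read counts sum to 60 or more over the 6 libraries. The rule found 115 genes, 21.1% of the 546 numbered LINC genes on these chromosomes, in a table of 62729 genes. Of the others, 222 had no count in any library and 209 had 1 to 59 counts. The total count chose the members, so their being detected is no finding. The members just inside the threshold were LINC00610 with 60 counts, LINC00843 with 64 and LINC00605 with 67, and those just outside were LINC00629 with 58 and LINC00431 and LINC00933 with 57 each.

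Both groups were A549 cells, an established line from a human lung adenocarcinoma, reverse transfected with 10 nM siRNA and harvested after 72 hours. The siRPS19 cells received a pooled siRNA (siGENOME SMARTpool) against RPS19, a gene for a small-subunit ribosomal protein, and the siOTP cells received a nontargeting siRNA of another product line, ON-TARGETplus. Each group had 3 biological replicates, sequenced from total RNA by a standard Illumina kit as read pairs. Target and reagent line differed together and cannot be told apart, and no untransfected cells were analysed here. The comparison asks how the RNA population differs after depletion of a ribosomal protein.

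Long noncoding RNAs are transcribed and often spliced like mRNAs but are not known to be translated into a long protein. Many are made at low levels and in few cell types. Some act in the nucleus on nearby genes, some bind proteins or microRNAs in the cytoplasm, some are processed into microRNAs, and some symbols of this kind were later reassigned when a small protein was found in the transcript. Several are studied in lung adenocarcinoma as transcripts whose level differs between tumours.

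RPS19 checked the labels. Its raw counts were 1159, 830 and 1073 in the siRPS19 libraries, against 30731, 27124 and 30387 in the siOTP libraries, and it was 35.3-fold lower in siRPS19. Counts on genes ran from 20814110 to 23889372 per library. Of the epithelial genes listed, the keratins KRT7, KRT8 and KRT18 and the cadherin CDH1 were present in both groups. EPCAM had few reads, with 89, 82 and 75 counts in siRPS19, against 107, 105 and 87 in siOTP. The keratins and EPCAM were lower in siRPS19 and CDH1 was higher. Of the 4 alveolar type 2 markers listed, NKX2-1 and SFTPA1 had 0 counts in every library. SFTPC had 2, 0 and 5 counts in siRPS19, against 3, 0 and 0 in siOTP, and SFTPB had 15, 12 and 12 counts in siRPS19, against 6, 11 and 5 in siOTP. The tumour suppressor genes CDKN2A and CDKN2B, which the line is known to lack, had 1 and 0 counts over the 6 libraries. Reads outside annotated genes averaged 5.81% ± 0.622 in the siRPS19 libraries, against 3.64% ± 0.232 in the siOTP libraries (SD, n = 3 each). The number of genes with a count averaged 27930 ± 614 in siRPS19, against 25710 ± 227 in siOTP. Both quantities move with the group, and their part in the levels of low-count genes was not tested.

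More of the LINC genes were higher than lower in siRPS19. All 115 passed the filter on low counts, 60 were higher, 24 were lower and 31 did not pass edgeR's quasi-likelihood test at an adjusted p of 0.05. That is 73.0% of the members called, against a background of 78.3% of all 17171 genes tested, so the share called is not a result about the members. The split by direction was 52.2% higher and 20.9% lower for the members, against 39.5% higher and 38.9% lower for all genes. The median log2 fold change, siRPS19 over siOTP, was 0.48 for the members and 0.02 for all genes. It was also 0.48 for the 1716 other long noncoding RNA genes tested, of which 47.1% were higher and 14.9% lower, and -0.02 for the 13436 protein coding genes. Of the calls alone, 71.4% were higher for the members and 50.4% for all genes, and with libraries scaled by their totals in place of TMM these shares were 79.4% and 65.8%.

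The imbalance varied with level. CPM are counts relative to library size after TMM scaling, which sets the bulk of genes level between libraries, and the members' median was 2.23 CPM, against 17.4 CPM for all genes tested. Among the 41 members at 5 CPM or more, 27 were higher and 12 lower, whereas 35.9% of all 11497 genes at that level were higher and 48.8% lower. Among the 44 members from 1 to 5 CPM, 24 were higher and 7 lower, against 48.1% and 22.5% of all genes. Among the 30 members under 1 CPM, 9 were higher and 5 lower, against 44.9% and 13.6%. A gene low in one group could pass the filter and the rule only through the other. The filter's floor was reached in all 3 libraries of both groups by 82 members, of which 44 were higher and 18 lower, with a median of 0.39. It was reached in all libraries of siRPS19 alone by 26 members, of which 16 were higher and 0 lower, and of siOTP alone by 6, all lower. These last 2 counts follow from sorting the genes by the group that reached the floor.

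**Figure D1:**
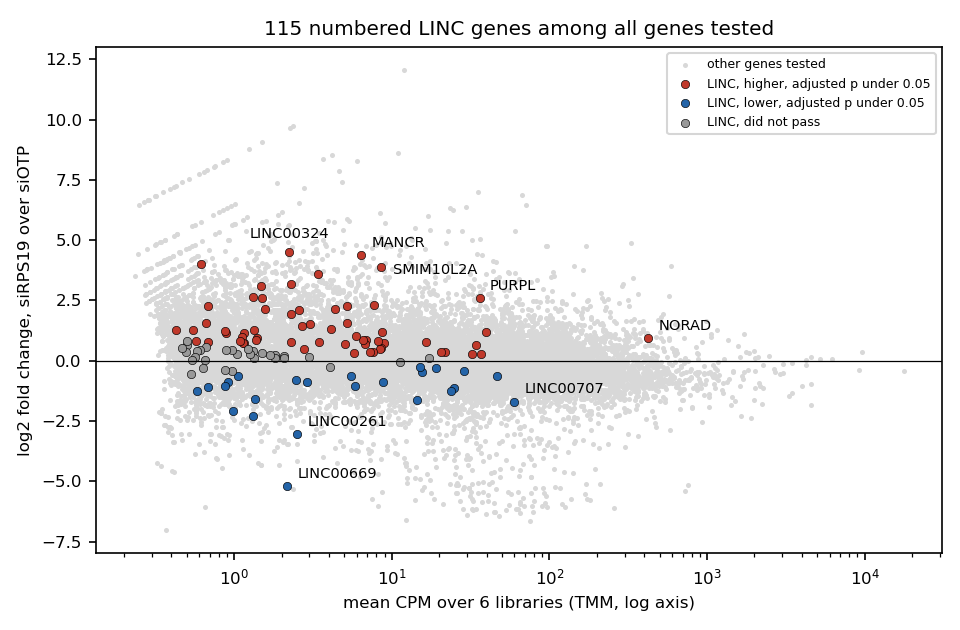
Mean level over the 6 libraries (CPM, TMM-scaled, log axis) against log2 fold change, siRPS19 over siOTP, for every gene tested, with the 115 numbered LINC genes coloured by call. LINC genes lie mostly left of the 17.4 CPM median of all genes, with 60 called above the line and 24 below it.

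Of the 115 members, 31 rose at least 2-fold and passed the test, and 13 fell at least 2-fold. These are 27.0% and 11.3% of the members, against 18.5% and 12.4% of all genes tested and 29.9% and 7.23% of the other long noncoding RNA genes. At 4-fold the counts were 16 higher and 4 lower (13.9% and 3.48%). The shares were 6.97% and 3.2% of all genes and 10.4% and 2.16% of the other long noncoding RNA genes. By level, 6.67% of members under 1 CPM were at least 4-fold higher, against 15.8% of all genes. From 1 to 5 CPM these shares were 20.5% and 13.7%, and at 5 CPM or more 12.2% and 3.19%. Of the members past 4-fold, 10 of the 16 higher reached the filter's floor in all libraries of siRPS19 alone and all 4 lower in those of siOTP alone. These members needed a library or more of that group to pass, and their counts follow in part from the filter. Fitted log2 fold changes ran from -5.21 to 4.50. The libraries of the groups did not overlap for 88 members, 76.5%, against 79.7% of all genes tested. Of the 84 called members, 4 had overlapping groups, and 8 of the 31 that did not pass had groups that did not overlap. Members that did not pass had a median of 131 counts over the libraries and called members 483, and the fitted log2 fold changes of those that did not pass ran from -0.53 to 0.80.

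**Figure D2:**
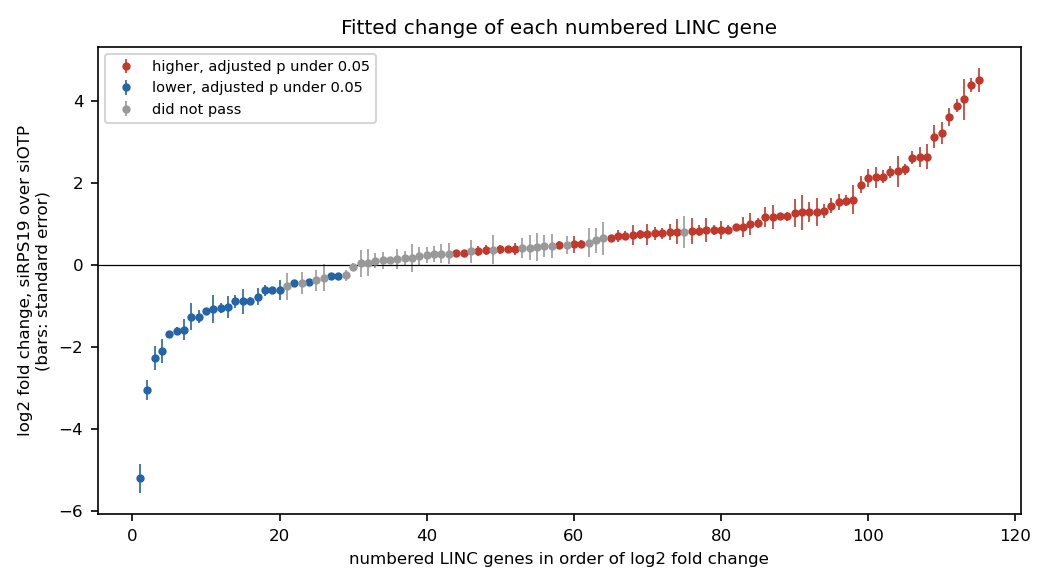
Log2 fold change, siRPS19 over siOTP, of each numbered LINC gene in rank order, with its standard error as a bar and colour by call. Values ran from -5.21 to 4.50, and members that did not pass lie between -0.53 and 0.80.

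One RNA dominated the summed level. Together the 115 genes held 1406, 1360 and 1364 CPM in the siRPS19 libraries, against 1022, 1048 and 972.6 CPM in the siOTP libraries. The groups did not overlap and the ratio of means, siRPS19 over siOTP, was 1.36. LINC00657, now named NORAD, held 40.3% ± 1.08 of this sum in siRPS19, against 28.8% ± 0.563 in siOTP (SD, n = 3 per group). The other 114 genes summed to 822 ± 25.8 CPM in siRPS19 and 722 ± 21.7 CPM in siOTP, a ratio of 1.14. As a share of all gene counts, the members made up 0.152% in siRPS19 and 0.0917% in siOTP. Fewer cells and less RNA per cell cannot be told apart in such libraries, which give relative levels.

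**Figure D3:**
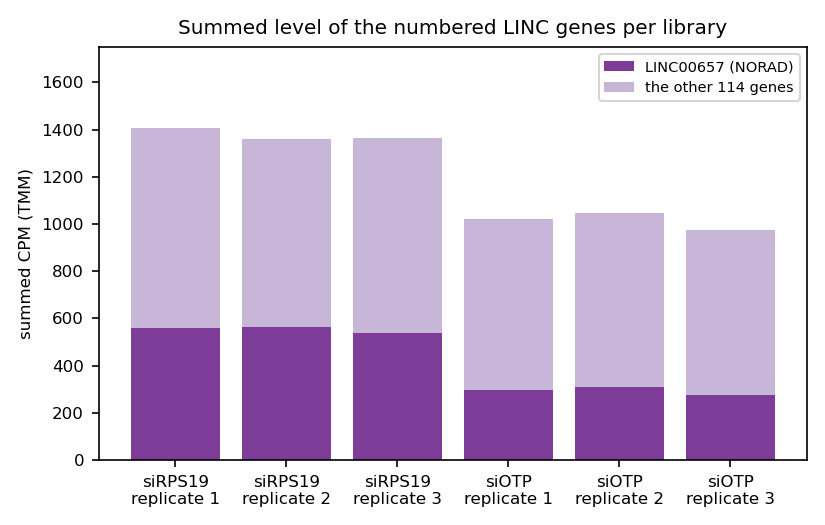
Summed level of the numbered LINC genes in each library (CPM, TMM-scaled), split into LINC00657 (NORAD) and the other 114 genes. The siRPS19 sums lie between 1360 and 1406 and the siOTP sums between 972.6 and 1048, and NORAD makes up 40.3% of the sum in siRPS19 and 28.8% in siOTP.

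NORAD (LINC00657, ENSG00000260032, chr20:34633544-34638882 in hg19, minus strand) is an abundant cytoplasmic RNA known to be induced by DNA damage. It ranked 290 of all 17171 genes tested by mean CPM. Its level was 559.5, 565.0 and 539.7 CPM in siRPS19, against 295.2, 307.7 and 274.5 CPM in siOTP. Every siRPS19 library was above every siOTP library, and the log2 fold change was 0.92 ± 0.04 (SE, adjusted p = 6.59e-14), a 1.90-fold rise. In the authors' table no other gene overlaps it. Of its 50-base windows 35.3% also occurred in transcripts of other genes, and how such reads were counted is unknown.

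PURPL (LINC01021, ENSG00000250337, chr5:27472399-27496508 in hg19, plus strand) is a direct p53 target known to restrain p53 levels. It had 69.2, 54.3 and 62.7 CPM in siRPS19, against 9.35, 12.7 and 8.51 CPM in siOTP. The groups were far apart, with a log2 fold change of 2.61 ± 0.16 (SE, adjusted p = 7.71e-06), a 6.10-fold rise. After NORAD it was the LINC gene with the highest mean level in siRPS19. No other annotated gene overlaps it.

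Promoters were taken from a RefSeq table (GRCh38.p14) that spans 250 bases before to 50 after each gene's start and matched 85 of the 115 members. PURPL's promoter is shown because it alone among the 85 held a pair of p53 half-sites, the decamer bound by p53, searched on both strands with a short spacer or none between the decamers. Such a pair was found in 8 of all 27305 promoters, 0.0293%. In capitals are the 20 bases of the pair, which begin 127 bases before the start of transcription, in chr5:27472042-27472341, plus strand.
PURPL promoter: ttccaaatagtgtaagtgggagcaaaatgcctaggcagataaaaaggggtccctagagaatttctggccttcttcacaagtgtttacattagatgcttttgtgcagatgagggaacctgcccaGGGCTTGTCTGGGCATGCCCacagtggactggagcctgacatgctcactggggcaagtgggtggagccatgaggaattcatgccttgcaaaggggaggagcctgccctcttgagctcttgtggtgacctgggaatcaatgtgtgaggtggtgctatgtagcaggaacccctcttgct
Single p53 half-sites stood in 7.06% of the 85 promoters, against 6.54% of all promoters. Whether p53 occupied the site was not measured.

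The 10 largest rises past the test were taken from members whose groups did not overlap and whose mean was at least 0.5 CPM, and they began with LINC00324 (ENSG00000178977, chr17:8123960-8127361, minus strand). It had 4.04, 4.86 and 3.93 CPM in siRPS19, against 0.288, 0.101 and 0.155 CPM in siOTP, from 312 counts over the siRPS19 libraries and 11 over the siOTP libraries. Its log2 fold change was 4.50 ± 0.29 (SE, adjusted p = 9.46e-12). None of its 50-base windows occurred in another gene's transcript. Of these 10, only SMIM10L2A (LINC00086) and PURPL reached the filter's floor in all libraries of both groups. LINC00324, LINC00704, LINC00705, LINC00304, LINC00893, LINC00663, LINC00475 and LINC00638 reached it in all libraries of siRPS19 alone. They needed a library or more of siRPS19 to pass, because not all siOTP libraries reached the floor.

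MANCR (LINC00704, ENSG00000231298, chr10:4692377-4720346, minus strand), known as a mitosis-associated RNA of breast cancer cells, had 12.4, 11.8 and 12.5 CPM in siRPS19, against 0.720, 0.557 and 0.464 CPM in siOTP. The log2 fold change was 4.38 ± 0.16 (SE, adjusted p = 1.17e-15). This was the smallest adjusted p of any member, but MANCR reached the filter's floor in all libraries of siRPS19 alone. LINC00705 lies inside the MANCR gene on the opposite strand and had 86 counts over the siRPS19 libraries and 4 over the siOTP libraries, a log2 fold change of 4.03 ± 0.50 (SE, adjusted p = 2.90e-07). The labels do not say that strand was kept, so reads of the pair cannot be told apart. The promoter of MANCR, at chr10:4678021-4678320 on the minus strand of GRCh38.p14, is shown with 2 searched motifs in capitals, a TTTGAA read on the opposite strand and, near the end, a CCAAT box.
MANCR promoter: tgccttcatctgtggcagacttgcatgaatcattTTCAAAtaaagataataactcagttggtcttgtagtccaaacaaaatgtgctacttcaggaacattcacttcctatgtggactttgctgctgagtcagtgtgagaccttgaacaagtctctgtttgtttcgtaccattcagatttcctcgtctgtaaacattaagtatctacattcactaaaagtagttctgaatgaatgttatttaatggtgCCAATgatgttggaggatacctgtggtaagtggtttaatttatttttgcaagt
These boxes are common, with CCAAT in 35.7% and TTTGAA in 15.4% of all promoters.

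SMIM10L2A (LINC00086, ENSG00000178947, chrX:134555868-134561999, plus strand) is now annotated as a small integral membrane protein gene. It had 16.1, 17.0 and 14.9 CPM in siRPS19, against 0.624, 1.22 and 1.44 CPM in siOTP. The log2 fold change was 3.88 ± 0.16 (SE, adjusted p = 9.38e-15). Its promoter, at chrX:135421694-135421993 on the plus strand of GRCh38.p14, is rich in G and C (75.3%) and held GGGCGG, the core of a GC box, at 3 places, given in capitals.
SMIM10L2A promoter: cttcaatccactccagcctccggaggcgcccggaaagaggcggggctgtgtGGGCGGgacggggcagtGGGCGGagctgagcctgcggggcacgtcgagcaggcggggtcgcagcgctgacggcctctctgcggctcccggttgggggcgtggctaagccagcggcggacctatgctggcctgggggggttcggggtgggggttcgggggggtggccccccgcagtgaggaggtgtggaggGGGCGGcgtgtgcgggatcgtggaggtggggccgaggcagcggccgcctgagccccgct
GGGCGG stood in 44.6% of all promoters and 45.9% of those of the members.

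The other rises among these 10 were the following, besides PURPL. LINC00304 averaged 6.32 ± 0.669 CPM in siRPS19 and 0.514 ± 0.189 CPM in siOTP, a log2 fold change of 3.60 (adjusted p = 3.30e-12, SD over n = 3 each, as in the next values). LINC00893, renamed EOLA1-DT as the divergent transcript of EOLA1, averaged 4.15 ± 1.01 CPM in siRPS19 and 0.452 ± 0.111 CPM in siOTP, a log2 fold change of 3.20. Its gene overlaps IDS, which encodes a lysosomal sulfatase and was itself higher (log2 fold change 0.81), on the same strand. LINC00663 averaged 2.65 ± 0.215 CPM in siRPS19 and 0.303 ± 0.0958 CPM in siOTP. LINC00475 averaged 2.29 ± 0.228 CPM in siRPS19 and 0.362 ± 0.240 CPM in siOTP, and LINC00638 averaged 2.59 ± 0.142 CPM in siRPS19 and 0.415 ± 0.0600 CPM in siOTP. The log2 fold changes of these 3 were 3.12, 2.63 and 2.62. PURPL completed the 10 at 2.61.

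**Figure D4:**
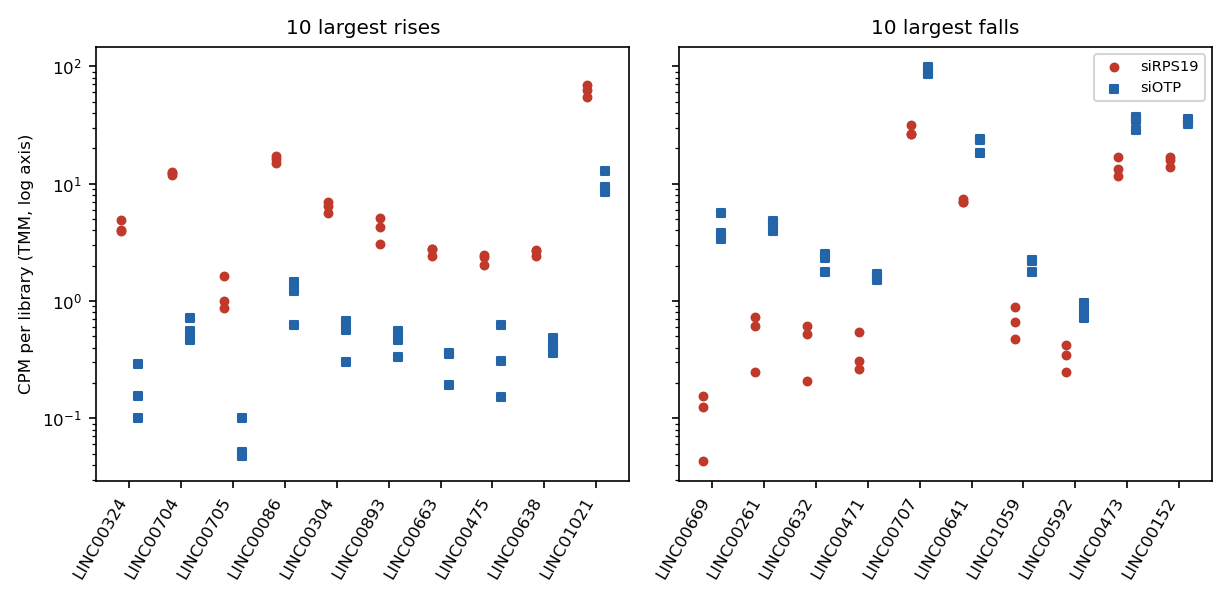
Level in each library (CPM, TMM-scaled, log axis) of the 10 largest rises and the 10 largest falls past the test at a mean of at least 0.5 CPM; circles are siRPS19 libraries and squares siOTP libraries, 3 each. Separate groups were required when the 20 were chosen, and among them only LINC00707, LINC00641, LINC00473 and LINC00152 on the right and LINC01021, LINC00086 and LINC00704 on the left exceed 10 CPM in a library.

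Further rises followed below these. LINC00886 had 6.50, 7.07 and 7.70 CPM in siRPS19, against 1.54, 1.87 and 1.39 CPM in siOTP, a log2 fold change of 2.14 ± 0.16 (SE, adjusted p = 8.34e-11). LINC00887, LINC01087 and LINC01085 had log2 fold changes of 1.95, 2.11 and 2.13 at mean levels of 3.62, 4.17 and 2.58 CPM in siRPS19, against 0.940, 0.972 and 0.583 CPM in siOTP. These 4, named after their values were seen, did not overlap between the groups, and LINC01085 reached the filter's floor in all libraries of siRPS19 alone. DUBR (LINC00883) and SPACA6 (LINC00085) were likewise named after their values were seen. DUBR had a log2 fold change of 1.18 (adjusted p = 7.26e-09). SPACA6, a gene now listed as coding for a sperm acrosome protein, averaged 20.7 ± 2.95 CPM in siRPS19 and 12.2 ± 2.19 CPM in siOTP (log2 fold change 0.77). The median log2 fold change was 1.09 over the 60 members that were higher and -1.05 over the 24 that were lower.

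Related loci moved together in a pair of cases, chosen after their values were seen. LINC00894, renamed EOLA2-DT, is the counterpart of LINC00893, and both lie on chromosome X. LINC00894 had 14.2, 11.3 and 13.3 CPM in siRPS19, against 2.45, 2.84 and 2.48 CPM in siOTP. Its log2 fold change was 2.32 ± 0.13 (SE, adjusted p = 8.60e-13). Of their 50-base windows, 42.7% of LINC00893 and 22.9% of LINC00894 occurred in other genes' transcripts, including each other's, so the split of reads between them is uncertain. On chromosome 21, LINC00319 (log2 fold change 2.25) and LINC00313 (1.55) lie next to each other. LINC00319 averaged 8.65 ± 0.841 CPM in siRPS19 and 1.82 ± 0.292 CPM in siOTP, and LINC00313 averaged 7.80 ± 0.339 CPM in siRPS19 and 2.65 ± 0.334 CPM in siOTP (SD, n = 3 each). Of the LINC00319 windows 91.5% were shared with CU639417.4, and of the LINC00313 windows 64.5% were shared with LINC01669. The sharing was found in GENCODE transcripts, whereas the reads were aligned to build hg19. Whether hg19 holds these partner genes, and so whether the sharing affected the counts, was not tested.

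Among the 24 genes that fell, LINC00669, renamed MIR924HG (ENSG00000267374, chr18:36786888-37380282, minus strand), fell furthest. It had 0.154, 0.0434 and 0.124 CPM in siRPS19, from 4, 1 and 3 counts, against 3.36, 5.62 and 3.76 CPM in siOTP, from 70, 111 and 73 counts. It was 37.0-fold lower, a log2 fold change of -5.21 ± 0.35 (SE, adjusted p = 3.73e-11). The gene is the host of miR-924, and a second microRNA gene inside it, MIR5583-1, lies on the other strand and had 0 counts.

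LINC00261 (ENSG00000259974, chr20:22528309-22559280, minus strand) is known as an endoderm RNA transcribed next to FOXA2, which encodes a forkhead factor of endoderm and airway epithelium. It had 0.731, 0.607 and 0.248 CPM in siRPS19, against 3.93, 4.81 and 4.69 CPM in siOTP, and fell 8.33-fold (log2 fold change -3.06 ± 0.24 SE, adjusted p = 3.38e-10). FOXA2, 2363 bases away on the same strand, averaged 23.8 CPM in siRPS19 and 57.0 CPM in siOTP, a log2 fold change of -1.26 (adjusted p = 4.34e-14). In GENCODE 29 the LINC00261 windows were 85.4% shared, chiefly with AL121722.1, another gene model at the locus. Its promoter, at chr20:22578593-22578892 on the minus strand of GRCh38.p14, is shown with a TATAAA read on the opposite strand in capitals, a box found in 8.24% of the members' promoters and 12.0% of all promoters.
LINC00261 promoter: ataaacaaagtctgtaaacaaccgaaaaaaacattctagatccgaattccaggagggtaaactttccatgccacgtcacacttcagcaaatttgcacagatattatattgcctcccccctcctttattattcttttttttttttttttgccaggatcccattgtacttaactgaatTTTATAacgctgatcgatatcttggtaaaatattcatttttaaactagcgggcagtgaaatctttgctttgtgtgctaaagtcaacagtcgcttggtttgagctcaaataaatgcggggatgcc
It held 37.0% G and C, against a median of 59.3% over the 85 promoters.

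LINC00632 (chrX:139791932-139854844, plus strand) is the transcript from which the circular RNA CDR1as is made. It had 0.616, 0.520 and 0.207 CPM in siRPS19, against 2.30, 1.77 and 2.53 CPM in siOTP, a log2 fold change of -2.27 ± 0.29 (SE, adjusted p = 5.16e-07). The adjacent CDR1 gene had a log2 fold change of -1.88 (adjusted p = 3.32e-05). CDR1 lies opposite the circular RNA and the labels do not state strand, so its counts and those of the circle cannot be told apart. LINC00471 averaged 0.369 ± 0.149 CPM in siRPS19 and 1.60 ± 0.0925 CPM in siOTP (SD, n = 3 each), a log2 fold change of -2.10.

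Of the 10 largest falls, those with the most reads were in LINC00707, LINC00152, LINC00473 and LINC00641. LINC00707 (ENSG00000238266, chr10:6821560-6884868, plus strand), studied as a lung adenocarcinoma transcript, averaged 28.2 ± 2.76 CPM in siRPS19, against 91.4 ± 6.95 CPM in siOTP (SD, n = 3 per group). It fell 3.25-fold (log2 fold change -1.70 ± 0.07 SE, adjusted p = 1.38e-12), and after NORAD it was the LINC gene with the highest level in siOTP. LINC00152, renamed CYTOR for its link to the cytoskeleton, had 15.9, 17.0 and 13.8 CPM in siRPS19, against 35.5, 32.4 and 34.5 CPM in siOTP, a log2 fold change of -1.14 ± 0.07 (SE, adjusted p = 9.94e-12). Of its windows 24.9% were shared, chiefly with its near-copy MIR4435-2HG, so the division of reads is uncertain.

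LINC00473 is known as a cAMP-responsive RNA that is high in lung cancer cells without the kinase LKB1. It had 11.5, 13.2 and 16.8 CPM in siRPS19, against 28.6, 37.2 and 34.6 CPM in siOTP, a log2 fold change of -1.27 ± 0.16 (SE, adjusted p = 0.000200). It overlaps PDE10A, a cyclic nucleotide phosphodiesterase gene on the same strand, which was slightly higher (log2 fold change 0.21, adjusted p = 0.00171). LINC00641 had 7.00, 7.03 and 7.41 CPM in siRPS19, against 23.7, 23.9 and 18.3 CPM in siOTP, a log2 fold change of -1.62 (adjusted p = 1.36e-11). The remaining 2 of the 10 were LINC01059 (log2 fold change -1.58) and LINC00592 (-1.27), both under 3 CPM in every library.

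Some LINC symbols cover genes with a small protein. From a list of 10 such genes, 5 were members, of which 3 were higher and 2 lower. Besides SMIM10L2A these were modest changes. SMIM30 (LINC00998), a small membrane protein gene, averaged 40.6 ± 1.19 CPM in siRPS19 and 33.3 ± 1.48 CPM in siOTP (SD, n = 3 each), a log2 fold change of 0.29 ± 0.05 (SE, adjusted p = 7.70e-05). BRD3OS (LINC00094), opposite and overlapping the bromodomain gene BRD3, also had 0.29 (adjusted p = 7.62e-05), and BRD3 itself had -0.15. SMIM26 (LINC00493), which encodes a mitochondrial protein, had 22.6, 24.9 and 25.7 CPM in siRPS19, against 31.0, 34.0 and 34.0 CPM in siOTP, a log2 fold change of -0.44 ± 0.06 (SE, adjusted p = 3.45e-06). MTLN (LINC00116), which encodes the mitochondrial peptide mitoregulin, averaged 17.1 ± 0.803 CPM in siRPS19 and 20.8 ± 2.54 CPM in siOTP, a log2 fold change of -0.28 (adjusted p = 0.00404) that was 0.0040 with libraries scaled by their totals. Over the 11 members that RefSeq lists as protein coding genes, 7 were higher and 2 lower, with a median log2 fold change of 0.43. LINC00610 and LINC01059, which matched only as synonyms of other coding genes, are not among them.

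Of the members whose microRNA genes matched RefSeq's table, 4 carry them on their own strand, and 1 mature sequence for each such microRNA gene is shown with its seed, bases 2 to 8, in capitals. LINC00478 (MIR99AHG, chr21:17442842-17999716, plus strand) is the host of let-7c, miR-99a and miR-125b-2. LINC00472 (chr6:72054047-72130472, minus strand) holds the genes of miR-30a and miR-30c-2, whose 5p arms share the seed GUAAACA. LINC01057 (now SLC44A3-AS1) holds MIR378G, and LINC00969 (now MUC20-OT1) holds MIR570.
hsa-let-7c-5p: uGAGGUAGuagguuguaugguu
hsa-miR-99a-5p: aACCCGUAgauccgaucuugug
hsa-miR-125b-5p: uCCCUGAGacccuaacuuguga
hsa-miR-30a-5p: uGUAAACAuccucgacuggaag
hsa-miR-30c-5p: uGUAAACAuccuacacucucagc
hsa-miR-378g: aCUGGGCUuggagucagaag
hsa-miR-570-3p: cGAAAACAgcaauuaccuuugc
MIR99AHG had 3.46, 2.65 and 2.61 CPM in siRPS19, against 1.49, 1.77 and 1.81 CPM in siOTP, a log2 fold change of 0.79 ± 0.19 (SE, adjusted p = 0.000826). LINC00472 had 4.42, 3.82 and 4.76 CPM in siRPS19, against 2.01, 2.74 and 2.94 CPM in siOTP, a log2 fold change of 0.76 ± 0.16 (SE, adjusted p = 0.000288). Both hosts were higher in every siRPS19 library than in any siOTP library. LINC01057 had 2.15, 1.91 and 1.99 CPM in siRPS19, against 4.22, 3.29 and 3.76 CPM in siOTP, a log2 fold change of -0.90 ± 0.17 (SE, adjusted p = 5.30e-05). LINC00969 had 28.5, 19.6 and 25.4 CPM in siRPS19, against 19.7, 20.1 and 16.9 CPM in siOTP, a log2 fold change of 0.38 ± 0.14 (SE, adjusted p = 0.0367). Its groups overlapped, and it missed the test without siRPS19 replicate 3 or without siOTP replicate 1, 2 or 3 (adjusted p = 0.0648, 0.0817, 0.0912 and 0.130). Over the 6 libraries MIR570 had 86 counts, MIR30C2 had 13, MIR125B2 had 2 and the other microRNA genes of these 4 hosts had none, and mature microRNA levels were not measured. Of a list of 3 host genes, MIR99AHG was the 1 member.

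Of 17 LINC genes listed from the lung cancer literature, 13 were members, of which 5 were higher, 6 lower and 2 did not pass. Those higher were LINC00342 (log2 fold change 1.31), LINC00963 (1.18), LINC00472 (0.76), LINC00467 (0.70) and LINC00511 (0.64). LINC00963 averaged 55.1 ± 4.55 CPM in siRPS19 and 24.4 ± 1.73 CPM in siOTP (adjusted p = 2.60e-12). LINC00511 averaged 41.7 ± 2.80 CPM in siRPS19 and 26.6 ± 1.71 CPM in siOTP (SD, n = 3 each, adjusted p = 9.87e-09). Besides LINC00261 and LINC00707, those lower were LINC00941 (-1.06), LINC00312 (-1.04), LINC00173 (-0.78) and LINC00857 (-0.45). LINC00941 averaged 3.80 ± 0.393 CPM in siRPS19 and 7.94 ± 0.0392 CPM in siOTP. LINC00662 (0.12, adjusted p = 0.158) and LINC00665 (0.11, adjusted p = 0.638) did not pass. LINC00662 did pass as higher with libraries scaled by their totals (0.40, adjusted p = 4.12e-05), with upper-quartile factors (0.29, adjusted p = 0.00148) and with a filter at a mean of 1 CPM (0.17, adjusted p = 0.0478). The list's members thus split between directions, with a median of 0.11, against 0.48 over all 115. Among 7 genes listed because they were renamed for a known role, 5 were members: NORAD, PURPL and SNHG20 (log2 fold change 0.36, adjusted p = 0.00855) were higher, and CYTOR and LINC00632 were lower. The SNHG20 call was lost without siOTP replicate 3 (adjusted p = 0.0786).

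Per length, the order of levels differed from that by reads. Mean CPM per kb of transcript was highest for NORAD, at 104 in siRPS19 and 54.8 in siOTP, and SMIM26 followed at 48.3 in siRPS19 and 65.3 in siOTP, so NORAD was above SMIM26 in siRPS19 and below it in siOTP. PURPL had 23.5 in siRPS19 and 3.86 in siOTP, SMIM30 had 21.4 in siRPS19 and 17.6 in siOTP, and LINC00707 had 9.18 in siRPS19 and 29.8 in siOTP. The other 5 of the 10 highest, LINC00963, LINC00973, LINC00339, LINC00842 and MTLN, lay between 5.61 and 12.7 CPM per kb in every group mean. LINC00842 fell (log2 fold change -0.62, adjusted p = 8.38e-09). Its gene overlaps NPY4R, a neuropeptide Y receptor gene on the opposite strand that was also lower (-0.76). It also overlaps ANXA8L1 and HNRNPA1P33. The labels do not state strand, so the division of reads among these genes is uncertain. LINC00339 had 13.3, 13.9 and 13.7 CPM in siRPS19, against 16.3, 16.4 and 16.9 CPM in siOTP, a log2 fold change of -0.28 (adjusted p = 0.00201) that was 0.0089 with libraries scaled by their totals. The 3 members with most counts that did not pass were LINC00662, LINC00973 (log2 fold change -0.05, adjusted p = 0.614) and LINC00674 (-0.26, adjusted p = 0.0882), which passed without siOTP replicate 3 (-0.36, adjusted p = 0.0379).

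Position was not used by the rule. Each member was paired with the nearest tested protein coding gene within 50 kb, which gave 80 pairs. Both genes passed the test in 45, of which 30 changed in the same direction and 15 in opposite directions, 66.7% the same. Over 11305 pairs of protein coding genes built the same way, both passed in 7675 and 53.9% changed in the same direction. Among the members' pairs both genes were higher in 20 and both lower in 10. The LINC gene was higher and its neighbour lower in 10, and the reverse held in 5. Of the 63 pairs whose genes do not overlap, 24 moved the same way and 12 the opposite way. The share for all coding pairs without overlap was not taken. By orientation, 53.03% of divergent, 50.98% of convergent and 54.95% of same-strand coding pairs moved the same way where both passed. Pairs can share a neighbour, as LINC00319 and LINC00313 share SIK1, and were not tested as independent.

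Among the pairs that fell together, LINC00471 lies 24785 bases from NCL, the gene of the nucleolar protein nucleolin, which averaged 723 CPM in siRPS19 and 2281 CPM in siOTP (log2 fold change -1.66). LINC00641 lies 2236 bases from HNRNPC, which encodes a pre-mRNA binding protein and had a log2 fold change of -1.19. LINC00592 lies near the keratin gene KRT7 (-0.53), and OLMALINC (LINC00263, log2 fold change -0.89) lies near SCD (-0.61), the gene of stearoyl-CoA desaturase. These pairs and those named next were picked from the plot after their values were seen. Among the pairs that rose together, SIK1, a salt-inducible kinase gene, averaged 667 CPM in siRPS19 and 380 CPM in siOTP (log2 fold change 0.81). ARRDC4, an arrestin-domain gene 45004 bases from LINC00923 (log2 fold change 0.74), had a log2 fold change of 4.05, much the larger of the pair. LINC00923 missed the test without siRPS19 replicate 3 or siOTP replicate 2 (adjusted p = 0.0886 and 0.0837) and with DESeq2 (0.0597). In opposite pairs, CTC1, a telomere maintenance gene next to LINC00324, had -0.35. SLC25A6, a mitochondrial ADP/ATP carrier gene next to LINC00106 (1.53), had -1.56, and CAPRIN2 had 0.94 beside LINC00941 (-1.06).

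**Figure D5:**
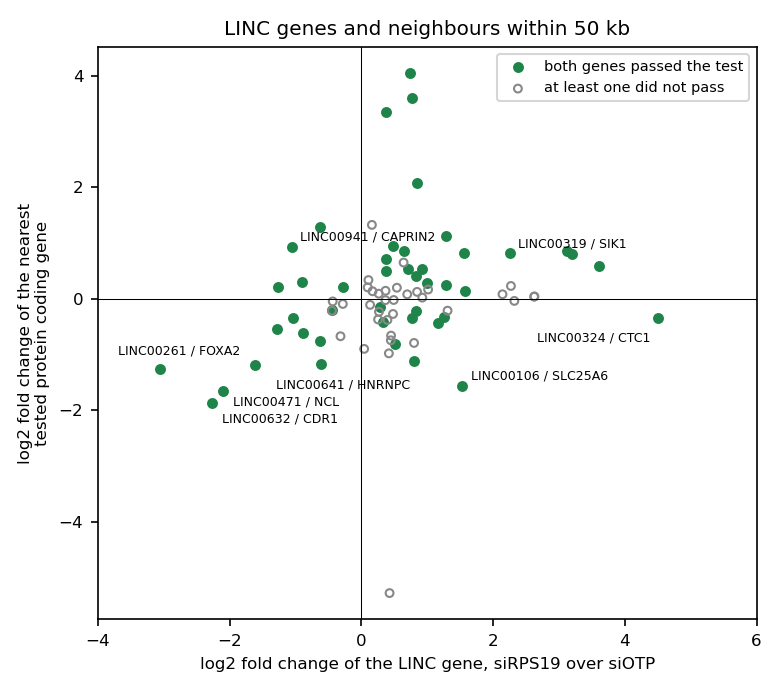
Log2 fold change, siRPS19 over siOTP, of each numbered LINC gene against that of its nearest tested protein coding gene within 50 kb, for 80 pairs; filled points are the 45 pairs in which both genes passed the test. Of the filled points 30 lie in the upper right or lower left and 15 in the other quadrants.

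Motifs were counted in the 85 matched promoters and in all promoters of the table. CCAAT stood in 34.1% of the 85 promoters and 35.7% of all, TTTGAA in 11.8% and 15.4%, and CACGTG, an E-box, in 7.06% and 7.43%, each searched on both strands with overlaps allowed. CCAAT stood in 34.1% of the 44 promoters of members that were higher and 45.0% of the 20 of those lower, and TTTGAA in 9.09% and 25.0%, counts too small to set against each other. NORAD's promoter, at chr20:36050911-36051210 on the minus strand of GRCh38.p14, is shown because it was among the 6 members' promoters with an E-box, in capitals 138 bases before the start.
NORAD promoter: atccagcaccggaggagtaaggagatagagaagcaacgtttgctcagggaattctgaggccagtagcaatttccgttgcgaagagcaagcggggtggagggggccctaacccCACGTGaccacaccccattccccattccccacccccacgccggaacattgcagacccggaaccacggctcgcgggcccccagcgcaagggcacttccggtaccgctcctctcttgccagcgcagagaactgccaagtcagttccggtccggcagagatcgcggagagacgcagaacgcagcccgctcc
The median G and C content was 59.3% for the members' promoters and 58.3% for all.

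Chromosomes differed in how many of their numbered LINC genes met the rule. On chromosome 13, 3 of 148 were members (2.03%), against 112 of 398 elsewhere (28.1%), a difference in detection and not between the groups. By transcript length, 10 of the 33 members under 2000 bases were higher and 5 lower. The counts were 29 and 14 of the 50 from 2000 to 4000 bases and 21 and 5 of the 32 longer ones. Of all genes tested, 39.5% were higher and 38.9% lower. Shares of all genes were not taken by length, so these counts are no result about length. A gene on the other strand overlapped 51 members, of which 27 were higher and 11 lower, and no other gene overlapped 53 members, of which 25 were higher and 11 lower. Overlap was taken over whole gene bodies, and without strand some reads counted on a gene may come from a gene that overlaps it. Of 108 members with a GENCODE 29 transcript, 5 had over 50% of their 50-base windows in other genes' transcripts and 65 had under 5%, of which 30 were higher and 11 lower.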

How the data were processed

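Strand, counting mode and annotation release were not given in the sources used here. TopHat2 (2.0.8b), HTSeq, DESeq, R (3.0.2) and build hg19 are named in the submitters' processing notes. The authors deposited raw counts per gene and library, which entered every test. Their deposited table of RPKM and mean counts (a signal that equals the group mean plus 1) has 1 value per group and gave symbols, coordinates and transcript lengths only. Entries that name no gene were left out, among them reads outside genes (5.81% in siRPS19 and 3.64% in siOTP) and ambiguous reads (7.56% in siRPS19 and 8.18% in siOTP).

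Counts were filtered with filterByExpr (minimum count 10, total 15), scaled by TMM and tested with edgeR 4.0.16 (robust quasi-likelihood, R 4.3.3), siRPS19 against siOTP, over 17171 genes with Benjamini-Hochberg adjustment. The script was tested on simulated data in which few genes were changed, whereas 78.3% were called here. That simulation does not test the scaling. Adjusted p-values come from this test, SE from its F statistic, and CPM are TMM-scaled. Library totals of 20814110 to 23889372 set the precision, which covers counting and replicate spread only. Replicates differed beyond sampling noise (chi-square per degree of freedom 4.40 to 16.6). The labels give same-numbered replicates a shared date, which pairs them; their deviations correlated across genes at 0.09, -0.12 and 0.07. The block was an alternative.

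Named genes are members of the fixed lists, the 10 largest rises and falls past the test with separate groups and at least 0.5 CPM, the 10 highest per kb, the 3 with most counts that did not pass, those at the threshold and RPS19. Other members and neighbours named were chosen after their values were seen. The members and lists were chosen with earlier results of these data known. Alternatives were other scalings, filters, DESeq2 1.42.0, limma-voom (limma 3.58.1), other member thresholds, overlap and leaving out each library. Names and types came from RefSeq and GENCODE 29, sequences of promoters and microRNAs from RefSeq.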

Additional observations from a re-analysis of the deposited data

Results flagged for a closer look

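Numbered LINC genes under the threshold of 60 counts also carried reads and are not described as members above. They held 772, 538 and 654 counts in the siRPS19 libraries, a mean of 654.7, against 365, 336 and 330 counts in the siOTP libraries, a mean of 343.7. The number of these genes with a count averaged 152 in siRPS19 and 117 in siOTP. Their summed level was 26.7 ± 3.20 CPM in siRPS19 and 17.2 ± 0.282 CPM in siOTP (SD, n = 3 each), and the groups did not overlap. Reads outside annotated genes were also higher in siRPS19 (5.81% and 3.64%), and their part in this difference was not tested.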

How the results depend on the processing

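The direction of the imbalance held under every scaling, filter and tool run. Members higher and lower numbered 77 and 20 with library totals, 66 and 21 with upper-quartile factors, 60 and 24 with RLE factors and with limma-voom, 54 and 23 with DESeq2, and 57 and 24 without the filter. Scaling moved the median of all genes to 0.31 with library totals and 0.20 with upper-quartile factors, against 0.02 with TMM, and the members' median to 0.76 and 0.65. Of the calls, 79.4% and 75.9% of members were then higher, against 71.4% with TMM, and 65.8% and 59.8% of all genes, against 50.4%. With at least 30 counts over the siOTP libraries required, the members' median was 0.38. Members that overlap no other gene gave 25 higher and 11 lower, and those with under 5% of windows shared 30 and 11, from fewer genes. The ratio of summed CPM was 1.66 with library totals, 1.53 with upper-quartile factors, 1.14 without LINC00657, and 1.33 to 1.38 when a library was left out. With the replicate block, 60 were higher and 24 lower, the median was 0.48 and all 84 calls were kept. Neighbour pairs also moved with scaling. With TMM 30 moved the same way and 15 the opposite way, against 42 and 13 with library totals. Upper-quartile factors gave 36 and 17, and the replicate block 31 and 15.

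With library totals the log2 fold changes of LINC00116 (0.0040), LINC00339 (0.0089), LINC00674 (0.021) and LINC00973 (0.23, adjusted p = 0.0244) turned positive, LINC00843 passed (0.82, adjusted p = 0.0422), and LINC00973 also with upper-quartile factors (0.12). When a library was left out, LINC00973 ran from -0.12 to 0.00075 and LINC00665 from -0.039 (without siRPS19 replicate 1 or siOTP replicate 2) to 0.25. The cause was not tested. Leaving out each library in turn gave 54 to 61 higher and 21 to 24 lower. LINC00610, at the threshold, missed the test without siRPS19 replicate 3, siOTP replicate 2 or siOTP replicate 3 (adjusted p = 0.0627, 0.0619 and 0.0581). Depth limits the 15 members with under 30 counts over the siOTP libraries and the 3 with under 30 over siRPS19.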
